A study of Homo sapiens with 12 samples.

Results

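The ERBB receptors and their EGF-family ligands were followed in T47D, an established line of estrogen receptor-positive breast cancer. The 10 genes were fixed by symbol: the receptors EGFR, ERBB2, ERBB3 and ERBB4, and the ligands AREG, EREG, TGFA, HBEGF, NRG1 and BTC. All 10 were among the 27864 genes of the count table, and 9 of them were among the 16081 genes with enough counts to be tested. Messenger RNA was sequenced in 4 groups of T47D cells: 3 libraries of an NF1 knockout line (NF1KO) given 3 µM BYL719 for 48 h, 2 of the same line given the vehicle DMSO for 48 h, 3 of a control line (CTRL) given BYL719 and 3 of CTRL given DMSO. NF1 encodes neurofibromin, which switches RAS off, and BYL719 (alpelisib) inhibits the alpha isoform of PI3K. A further NF1KO DMSO sample, replicate 1, was not analysed here. How the knockout was made, and whether each line was 1 clone or a pool, is not given in the sources used here, so a difference between the lines cannot be told apart from other differences between them. The labels call the libraries experimental replicates without saying whether they came from separate cultures, so p-values measure the spread between these samples, which may be technical.

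EGFR, ERBB2, ERBB3 and ERBB4 are receptor tyrosine kinases that act in pairs. ERBB2 binds no known ligand and ERBB3 has a weak kinase, and ERBB2 with ERBB3 is the pair that couples most directly to PI3K. AREG, EREG, TGFA, HBEGF and BTC are made as membrane proteins, are cut free by ADAM proteases and bind EGFR, some of them ERBB4 as well, whereas NRG1 binds ERBB3 and ERBB4. Active receptors feed RAS and PI3K, and FOXO transcription factors, which AKT keeps out of the nucleus, are known to raise receptor genes such as ERBB3 when PI3K or AKT is inhibited in breast cancer cells.

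Promoter windows are shown for 4 members: ERBB2, the member with the largest called difference between the lines in its BYL719 effect, AREG and EREG, neighbours on chromosome 4 that were both higher in NF1KO, and BTC, the ligand called under BYL719 in CTRL. Each window runs from 250 bases before to 50 bases after a RefSeq gene start (GRCh38.p14), 5′ to 3′ on the strand of the gene. RefSeq windows were at hand for 8 of the 10 members. Capitals mark exact matches, on either strand, to 4 motifs: the FOXO core TGTTTAC, the cAMP response element TGACGTCA (CRE), the AP-1 site TGACTCA and the ETS site CCGGAAGT.
ERBB2, chr17:39687844-39688143, plus strand: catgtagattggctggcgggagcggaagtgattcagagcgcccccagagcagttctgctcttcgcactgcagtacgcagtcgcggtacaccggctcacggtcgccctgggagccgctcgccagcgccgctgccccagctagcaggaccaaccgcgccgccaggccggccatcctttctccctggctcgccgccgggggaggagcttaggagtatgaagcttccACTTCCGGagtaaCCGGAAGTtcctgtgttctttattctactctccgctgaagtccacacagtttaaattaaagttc
AREG, chr4:74444886-74445185, plus strand: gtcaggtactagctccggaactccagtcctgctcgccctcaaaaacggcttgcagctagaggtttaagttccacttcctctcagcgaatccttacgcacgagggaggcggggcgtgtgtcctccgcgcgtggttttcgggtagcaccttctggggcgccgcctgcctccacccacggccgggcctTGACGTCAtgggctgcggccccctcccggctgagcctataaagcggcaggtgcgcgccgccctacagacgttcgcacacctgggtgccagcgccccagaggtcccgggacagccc
EREG, chr4:74364895-74365194, plus strand: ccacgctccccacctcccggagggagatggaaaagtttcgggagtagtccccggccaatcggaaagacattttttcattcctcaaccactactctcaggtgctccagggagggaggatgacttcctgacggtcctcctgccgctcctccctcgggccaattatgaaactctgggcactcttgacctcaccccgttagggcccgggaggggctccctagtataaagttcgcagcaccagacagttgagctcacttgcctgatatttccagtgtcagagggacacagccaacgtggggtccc
BTC, chr4:74794474-74794773, minus strand: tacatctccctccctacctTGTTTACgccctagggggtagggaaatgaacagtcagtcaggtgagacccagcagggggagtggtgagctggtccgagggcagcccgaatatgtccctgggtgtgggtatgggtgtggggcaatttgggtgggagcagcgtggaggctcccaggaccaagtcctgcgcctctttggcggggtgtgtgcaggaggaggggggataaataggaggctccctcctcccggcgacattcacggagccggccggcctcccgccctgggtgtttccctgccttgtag

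The ERBB2 window held 2 ETS matches, with first bases at -27 and -14 relative to the start, on opposite strands. ETS letters were found in 4.14% of all 35116 RefSeq windows of 300 bases. The AREG window held a CRE with its first base at -65, a motif found in 1.85% of all windows. The BTC window held the FOXO core with its first base at -231, against 3.42% of all windows. The EREG window held none of the 4 motifs, and AP-1 letters, found in 4.95% of all windows, were in none of the 4 windows shown. Windows of EGFR, ERBB4, TGFA and HBEGF are not shown. The EGFR window at the outer gene start, chr7:55018767-55019066, held none of the 4 motifs. A further EGFR window, chr7:55109589-55109888, lies inside the gene and held 2 AP-1 matches, with first bases at -232 and -136. The windows of ERBB4, TGFA and HBEGF held none of the 4 motifs. ERBB2 has 20 annotated transcript starts in GENCODE 29, and only the window at the RefSeq start is shown. PGAP3, which encodes a remodelling enzyme for lipid-anchored proteins, covers chr17:39671122-39688057. The edge of its annotated interval at 39688057 lies inside the ERBB2 window. A match of letters is a description and says nothing of binding.

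The 11 libraries held between 53283945 and 60148876 counts. NF1 transcripts were at 0.400 to 0.891 CPM (normalised read counts relative to library size, scaled by TMM) in NF1KO BYL719 libraries and at 0.471 and 0.480 CPM in NF1KO DMSO libraries, against 147 to 214 CPM in CTRL BYL719 and 209 to 289 CPM in CTRL DMSO libraries. The CTRL libraries numbered 1 stood apart: chi-square per degree of freedom over genes was 52.4 to 70.4 against the other libraries of their groups. It was 27.1 and 35.7 for NF1KO BYL719 replicate 3, and 7.13 to 11.9 for the remaining pairs. Among the members, BTC was the single call that ended without both CTRL libraries numbered 1, and none ended without NF1KO BYL719 replicate 3. The 10 luminal epithelial markers summed to 11116 to 15478 CPM in every library, so the labelled cell type was matched. KRT5, COL3A1, DCN, PTPRC, CD3E and CDH5, defining markers of basal, fibroblast, immune and endothelial cells, had at most 4 counts in any library. The 5 fibroblast markers summed to 16.8 to 21.3 CPM in NF1KO BYL719, 25.9 to 26.1 CPM in NF1KO DMSO, 27.5 to 35.9 CPM in CTRL BYL719 and 49.7 to 55.4 CPM in CTRL DMSO, nearly all of it COL1A1 (16.6 to 55.2 CPM over the libraries), whose part in the results was not tested. The 5 basal markers summed to 1.89 to 2.92 CPM over the libraries, the 4 immune markers to 1.67 to 3.68 CPM and the 3 endothelial markers to 0.259 to 1.05 CPM. In bulk RNA, fewer cells with a transcript and less of it per cell cannot be told apart.

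Set per length of exon, ERBB3 and ERBB2 made up nearly all receptor transcript in T47D cells. ERBB3 took 68.8% ± 1.39 (SD, n = 3) of the summed CPM per kb of the 4 receptors in NF1KO BYL719, 66.3% ± 0.677 (n = 2) in NF1KO DMSO, 54.1% ± 2.75 (n = 3) in CTRL BYL719 and 61.5% ± 1.33 (n = 3) in CTRL DMSO. ERBB2 took 27.7% ± 1.65 in NF1KO BYL719, 29.5% ± 0.555 in NF1KO DMSO, 43.9% ± 3.05 in CTRL BYL719 and 35.1% ± 1.7 in CTRL DMSO, so its share was highest in CTRL cells on BYL719, where no library overlapped any other group. EGFR and ERBB4 each stayed between 0.792% and 2.83% in every library. The summed receptor level was 67.1 ± 2.94 CPM per kb in NF1KO BYL719, 48.5 ± 1.27 in NF1KO DMSO, 135 ± 3.06 in CTRL BYL719 and 71.8 ± 2.64 in CTRL DMSO. These shares are descriptions and were not tested.

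**Figure D1:**
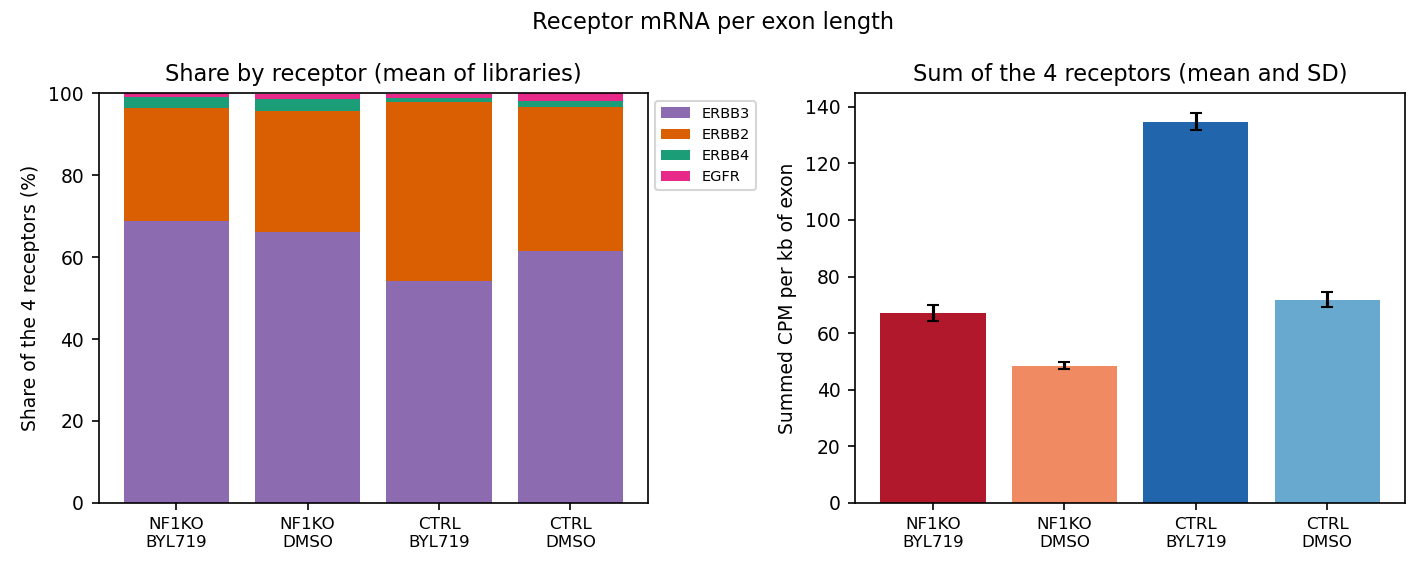
Left, the mean share (%) of each receptor in the summed CPM per kb of exon of the 4 receptors, and right, that sum (mean and SD of 3, 2, 3 and 3 libraries), by line and treatment. ERBB3 is the largest share in all 4 groups, and the sum is highest, at 135 CPM per kb, in CTRL cells on BYL719.

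In DMSO, EGFR, ERBB2 and ERBB3 transcripts were lower in NF1KO than in CTRL, whereas ERBB4, AREG, EREG and TGFA were higher. The test was edgeR's quasi-likelihood test with Benjamini-Hochberg adjustment over all tested genes, 2-sided, called at an adjusted p under 0.05, and it is behind every adjusted p below. EREG passed the filter on low counts through its NF1KO libraries, so it had to differ between the lines and is left out of the counts here. Of the other 8 tested members, 6 were called, 3 higher and 3 lower, where 20.3% of all tested genes were called, 9.99% higher and 10.3% lower. The median log2 fold change was 0.18 over these 8 and -0.01 over all tested genes. In BYL719, 7 of the 8 were called, 3 higher and 4 lower, against 39.8% of all tested genes, 20.8% higher and 19.0% lower. Their median was then -0.64 and that of all genes 0.00. Groups without overlap, as given for single genes below, were common. Of all tested genes, 56.1% did not overlap between NF1KO and CTRL in DMSO and 48.9% in BYL719. Between BYL719 and DMSO it was 54.7% in NF1KO and 51.1% in CTRL.

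ERBB2, the receptor without a ligand of its own, had 175, 206 and 195 CPM in NF1KO BYL719 libraries and 149 and 147 CPM in NF1KO DMSO libraries, against 549, 640.2 and 642 CPM in CTRL BYL719 and 238, 267 and 275 CPM in CTRL DMSO libraries. No 2 groups overlapped, and the order from the highest group was CTRL BYL719, CTRL DMSO, NF1KO BYL719 and NF1KO DMSO. The NF1KO level was lower than CTRL by a log2 fold change of -0.82 ± 0.10 (SE) in DMSO (adjusted p = 9.06e-05) and of -1.67 ± 0.09 in BYL719 (adjusted p = 3.06e-08). BYL719 raised ERBB2 by 0.38 ± 0.10 in NF1KO (adjusted p = 0.0186) and by 1.23 ± 0.09 in CTRL (adjusted p = 5.07e-07). The BYL719 effect on ERBB2 was smaller in NF1KO than in CTRL by -0.85 ± 0.13 on the log2 scale (adjusted p = 0.00115), with a 95% interval of -1.13 to -0.57. It was the single member of 9 called in this comparison, in which 9.39% of all tested genes were called, 3.71% lower and 5.68% higher. The call in NF1KO was lost without NF1KO DMSO replicate 2 (adjusted p = 0.107), NF1KO DMSO replicate 3 (0.136) or NF1KO BYL719 replicate 2 (0.0709).

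ERBB3, the partner of ERBB2, had 418, 436 and 399 CPM in NF1KO BYL719 libraries and 298 and 283 CPM in NF1KO DMSO libraries, against 682, 634 and 659 CPM in CTRL BYL719 and 396, 389 and 412 CPM in CTRL DMSO libraries. BYL719 raised it in each line without overlap, by 0.52 ± 0.07 in NF1KO (adjusted p = 0.000570) and by 0.72 ± 0.06 in CTRL (adjusted p = 2.44e-06). The difference between these effects, -0.20 ± 0.09, did not pass (adjusted p = 0.242, 95% interval -0.40 to 0.00). It did with the libraries paired by number within each line (adjusted p = 0.0358), a pairing that is not shown for the NF1KO libraries. ERBB3 was lower in NF1KO than in CTRL by -0.46 ± 0.07 in DMSO (adjusted p = 0.000561) and by -0.66 ± 0.06 in BYL719 (adjusted p = 4.19e-06). NF1KO cells on BYL719 overlapped CTRL cells on DMSO, with a log2 fold change of 0.06 ± 0.06 (adjusted p = 0.443) and a 95% interval of -0.07 to 0.20.

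EGFR, the receptor for most of the ligands here, had 7.39, 7.19 and 7.60 CPM in NF1KO BYL719 libraries and 8.16 and 8.73 CPM in NF1KO DMSO libraries, against 23.7, 17.5 and 18.8 CPM in CTRL BYL719 and 19.4, 14.5 and 17.3 CPM in CTRL DMSO libraries. Every NF1KO library lay below every CTRL library. On DMSO the log2 fold change of NF1KO against CTRL was -1.01 ± 0.15 (adjusted p = 0.000373), and on BYL719 it was -1.44 ± 0.13 (adjusted p = 2.83e-06). For BYL719 against DMSO it was -0.19 ± 0.15 in NF1KO (adjusted p = 0.397) and 0.23 ± 0.12 in CTRL (adjusted p = 0.154). The difference of these effects, -0.42 ± 0.19, did not pass (adjusted p = 0.232). With the libraries paired by number within each line, the CTRL value was 0.23 with an adjusted p of 0.00217. The CTRL libraries bear this pairing out most in those numbered 1. The difference of effects passed as well when so paired (adjusted p = 0.00498), but the pairing is not shown for the NF1KO libraries.

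ERBB4, the other neuregulin receptor, was the receptor with the opposite direction. It had 24.2, 23.0 and 19.7 CPM in NF1KO BYL719 libraries and 17.9 and 17.5 CPM in NF1KO DMSO libraries, against 16.4, 13.9 and 15.7 CPM in CTRL BYL719 and 14.3, 13.3 and 14.5 CPM in CTRL DMSO libraries. The 2 CTRL groups overlapped, and every NF1KO library lay above every CTRL library. NF1KO was higher by 0.33 ± 0.10 in DMSO (adjusted p = 0.0382) and by 0.54 ± 0.09 in BYL719 (adjusted p = 0.000488). BYL719 changed ERBB4 by 0.33 ± 0.10 in NF1KO (adjusted p = 0.0408), and the value in CTRL was 0.12 ± 0.09 (adjusted p = 0.299). The effects were not shown to differ between the lines (0.21 ± 0.14, adjusted p = 0.445). The call in DMSO was lost without any of the 3 CTRL DMSO libraries, either NF1KO DMSO library or NF1KO BYL719 replicate 2, with adjusted p-values up to 0.195. The BYL719 call in NF1KO was lost without CTRL DMSO replicate 2 or 3, CTRL BYL719 replicate 3, either NF1KO DMSO library or NF1KO BYL719 replicate 1 or 2, with adjusted p-values up to 0.243, and with no filter on low counts (0.0530).

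**Figure D2:**
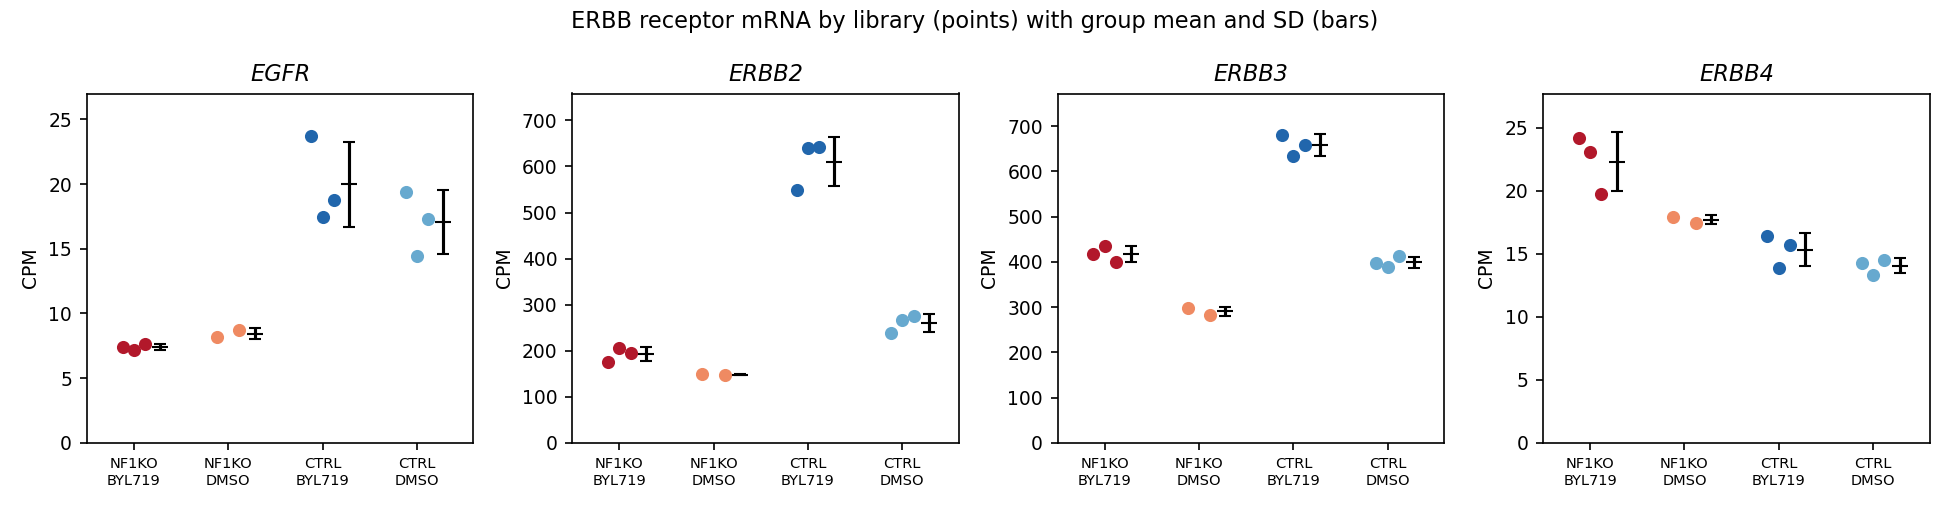
CPM of the 4 receptors in each library (points), with group means and SD (bars), by line and treatment; each panel has its own scale from 0. EGFR, ERBB2 and ERBB3 are lower in NF1KO than in CTRL on the same treatment, and ERBB4 is higher.

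Among the 6 member ligands, AREG and TGFA supplied most of the transcript. EGF and NRG4, ligands that are not members and were lower in NF1KO on BYL719, are not in these shares and sums and are given below. AREG took 66.5% ± 4.45 of the summed CPM per kb of the 6 ligands in NF1KO BYL719, 64.4% ± 0.161 in NF1KO DMSO, 60.4% ± 0.447 in CTRL BYL719 and 57.3% ± 2.23 in CTRL DMSO (SD, n = 3, 2, 3 and 3). TGFA took 27.5% to 38.6% over the libraries and HBEGF 1.64% to 6.35%. The summed ligand level was 26.0 ± 2.11 CPM per kb in NF1KO BYL719, 26.0 ± 1.04 in NF1KO DMSO, 15.1 ± 1.23 in CTRL BYL719 and 13.5 ± 1.02 in CTRL DMSO, so the lowest NF1KO library, at 23.6, lay above the highest CTRL library, at 16.3.

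AREG, amphiregulin, a ligand of EGFR and an estrogen target in breast epithelium, had 23.9, 29.8 and 31.9 CPM in NF1KO BYL719 libraries and 26.7 and 28.4 CPM in NF1KO DMSO libraries, against 13.7, 15.1 and 16.3 CPM in CTRL BYL719 and 11.4, 12.6 and 14.3 CPM in CTRL DMSO libraries. The lines did not overlap, and the treatments overlapped within each line. NF1KO was higher than CTRL by 1.11 ± 0.13 in DMSO (adjusted p = 6.93e-05) and by 0.92 ± 0.12 in BYL719 (adjusted p = 5.16e-05). For BYL719 against DMSO the log2 fold change was 0.05 ± 0.13 in NF1KO (adjusted p = 0.825) and 0.24 ± 0.12 in CTRL (adjusted p = 0.127). Paired by number within each line, the CTRL value was 0.24 with an adjusted p of 0.00108. The NF1KO value was then 0.16 with an adjusted p of 0.0356, a pairing that is not shown for the NF1KO libraries.

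TGFA, transforming growth factor alpha, a further EGFR ligand, had 40.8, 38.8 and 37.8 CPM in NF1KO BYL719 libraries and 40.2 and 42.1 CPM in NF1KO DMSO libraries, against 22.5, 25.5 and 26.9 CPM in CTRL BYL719 and 24.1, 25.3 and 25.7 CPM in CTRL DMSO libraries. All NF1KO libraries lay above all CTRL libraries. NF1KO was higher by 0.72 ± 0.08 in DMSO (adjusted p = 6.03e-05) and by 0.65 ± 0.07 in BYL719 (adjusted p = 2.33e-05). The 95% interval of the BYL719 effect was -0.25 to 0.11 in NF1KO and -0.16 to 0.16 in CTRL, with adjusted p-values of 0.585 and 0.990, so its sign in CTRL, with a value of -0.0014, was not determined.

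EREG, epiregulin, which binds EGFR and ERBB4, was scarce, with 50, 54 and 23 counts in NF1KO BYL719 libraries and 57 and 60 counts in NF1KO DMSO libraries, against 0, 3 and 2 counts in CTRL BYL719 and 2, 4 and 6 counts in CTRL DMSO libraries. It passed the filter on low counts through the NF1KO libraries. NF1KO BYL719 replicate 3 was low in its group, yet above every CTRL library. The fitted log2 fold change of NF1KO against CTRL on DMSO was 3.85 ± 0.50 (adjusted p = 0.000174), and on BYL719 it was 4.59 ± 0.57 (adjusted p = 4.75e-05), sizes that rest on few CTRL counts. BYL719 against DMSO gave -0.49 ± 0.36 in NF1KO (adjusted p = 0.383) and -1.23 ± 0.88 in CTRL (adjusted p = 0.279).

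HBEGF, heparin-binding EGF-like growth factor, had 1.97, 1.31 and 1.64 CPM in NF1KO BYL719 libraries and 1.92 and 2.28 CPM in NF1KO DMSO libraries, against 2.66, 2.31 and 2.64 CPM in CTRL BYL719 and 2.37, 1.80 and 2.00 CPM in CTRL DMSO libraries. Among the member ligands, it alone was called lower in NF1KO on BYL719, by -0.63 ± 0.17 (adjusted p = 0.0116). That call was lost without NF1KO BYL719 replicate 2 (adjusted p = 0.0521). NRG4 and EGF, ligands that are not members, were called lower there too, as given below. In DMSO the lines overlapped, at 0.03 ± 0.19 (adjusted p = 0.932). BYL719 against DMSO gave -0.35 ± 0.19 in NF1KO (adjusted p = 0.225, and 0.0422 when paired by number over all groups). In CTRL it gave 0.30 ± 0.17 (adjusted p = 0.171, and 0.0482 when paired by number within each line). The difference of these effects, -0.65 ± 0.26, did not pass (adjusted p = 0.153). It passed when paired by number (lowest adjusted p = 0.00791), a pairing that is not shown for the NF1KO libraries.

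BTC, betacellulin, had 9, 13 and 8 counts in NF1KO BYL719 libraries and 12 and 7 counts in NF1KO DMSO libraries, against 24, 11 and 16 counts in CTRL BYL719 and 0, 2 and 8 counts in CTRL DMSO libraries. It passed the filter largely through the CTRL BYL719 libraries, which lay above the CTRL DMSO libraries. BYL719 against DMSO gave 2.27 ± 0.64 in CTRL (adjusted p = 0.0128), 1.36 without both libraries numbered 1 (adjusted p = 0.0716) and 3.90 without CTRL DMSO replicate 3, and 0.05 ± 0.64 in NF1KO (adjusted p = 0.973). NF1KO against CTRL on DMSO gave 1.5 ± 0.78 (adjusted p = 0.197), and on BYL719 -0.72 ± 0.52 (adjusted p = 0.299). Without CTRL DMSO replicate 3 the value in DMSO was 3.14 (adjusted p = 0.0343) and the difference of the BYL719 effects was -3.86 (adjusted p = 0.0370), against -2.22 ± 0.94 with it (adjusted p = 0.191). NRG1, the neuregulin ligand of ERBB3 and ERBB4, had 2 counts in CTRL DMSO replicate 2 and 0 counts in the other 10 libraries, where 3 counts, or 0.0508 to 0.0558 CPM by library, is the limit that a count of 0 allows. It was not tested, and no fold is given.

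**Figure D3:**
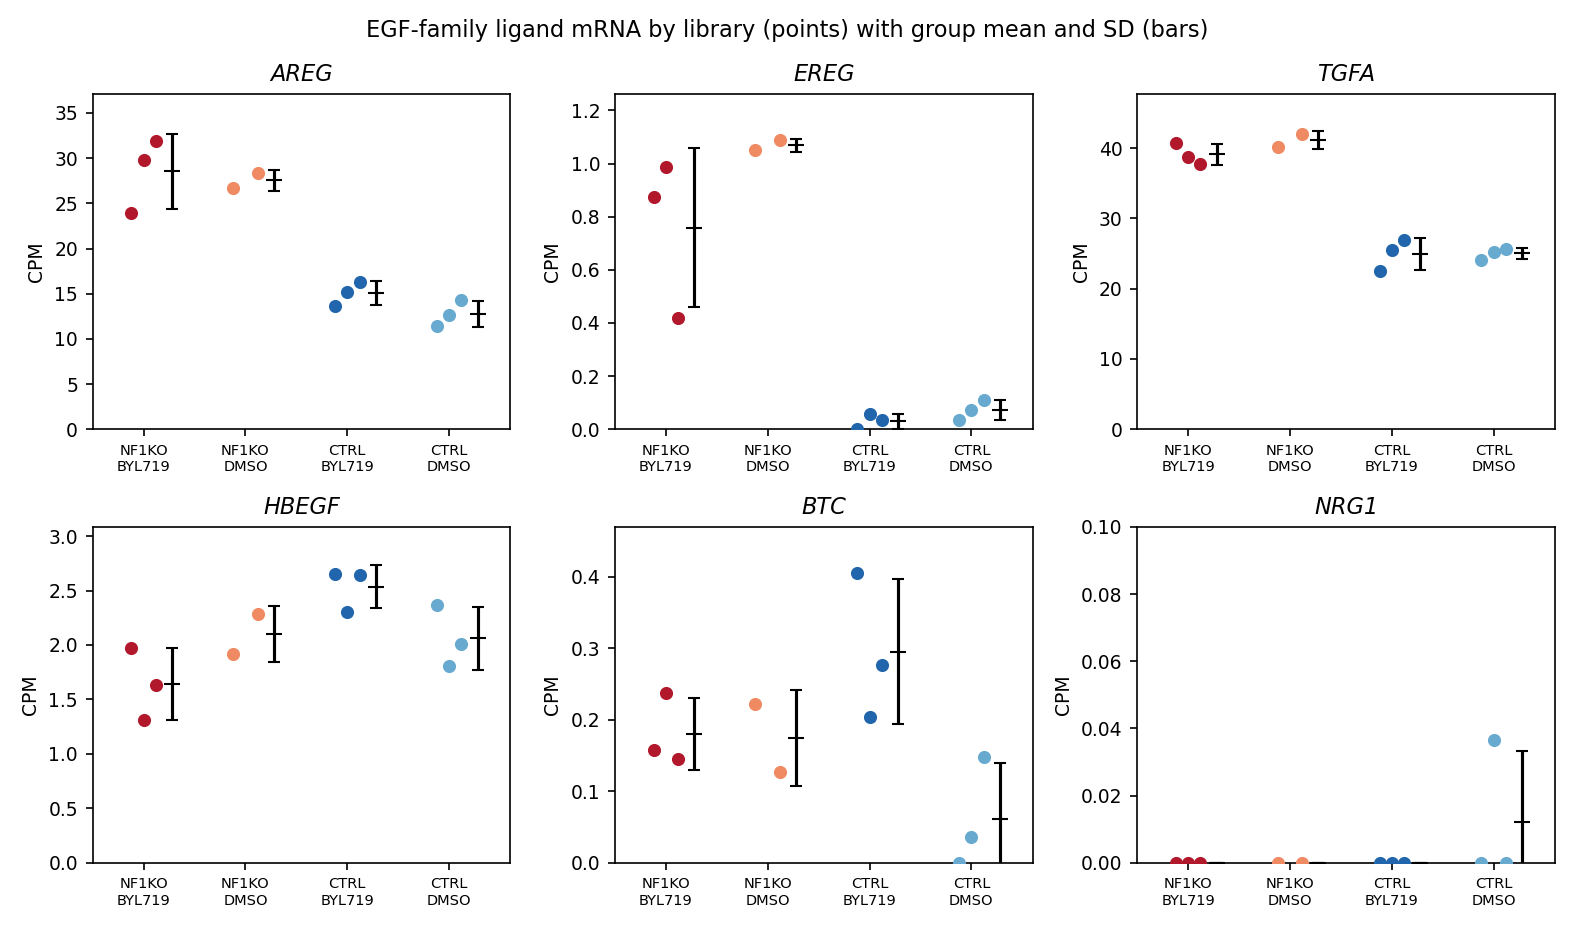
CPM of the 6 ligands in each library (points), with group means and SD (bars, drawn down to 0 at most), by line and treatment; each panel has its own scale from 0. AREG, TGFA and EREG separate the lines without overlap, EREG having passed the filter on low counts through its NF1KO libraries. Of all tested genes, 56.1% did not overlap between the lines in DMSO and 48.9% in BYL719. BTC has at most 24 counts in a library, and NRG1 has 2 counts in all.

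Under BYL719, 3 of the 9 tested members were called in NF1KO, namely ERBB2, ERBB3 and ERBB4, all higher, against 18.7% of all tested genes called, 10.3% higher and 8.47% lower. In CTRL, BTC passed the filter largely through the BYL719 libraries and is left out of the count. Of the other 8, ERBB2 and ERBB3 were called, both higher, against 44.4% of all tested genes, 22.6% higher and 21.8% lower. With libraries paired by number within each line, EGFR, AREG and HBEGF were added to these in CTRL. There 63.4% of all tested genes were called, so the share of the 8 was close to that of all genes. For NF1KO cells on BYL719 set against CTRL cells on DMSO, 5 of the 8 members other than EREG were called, ERBB4, AREG and TGFA higher and EGFR and ERBB2 lower, where 34.9% of all tested genes were called, 18.0% higher and 16.9% lower. In that contrast ERBB2 stood at -0.44 ± 0.09 (adjusted p = 0.00189), and AREG at 1.16 ± 0.12 (adjusted p = 1.46e-05). Comparisons that share a group are not independent of each other.

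**Figure D4:**
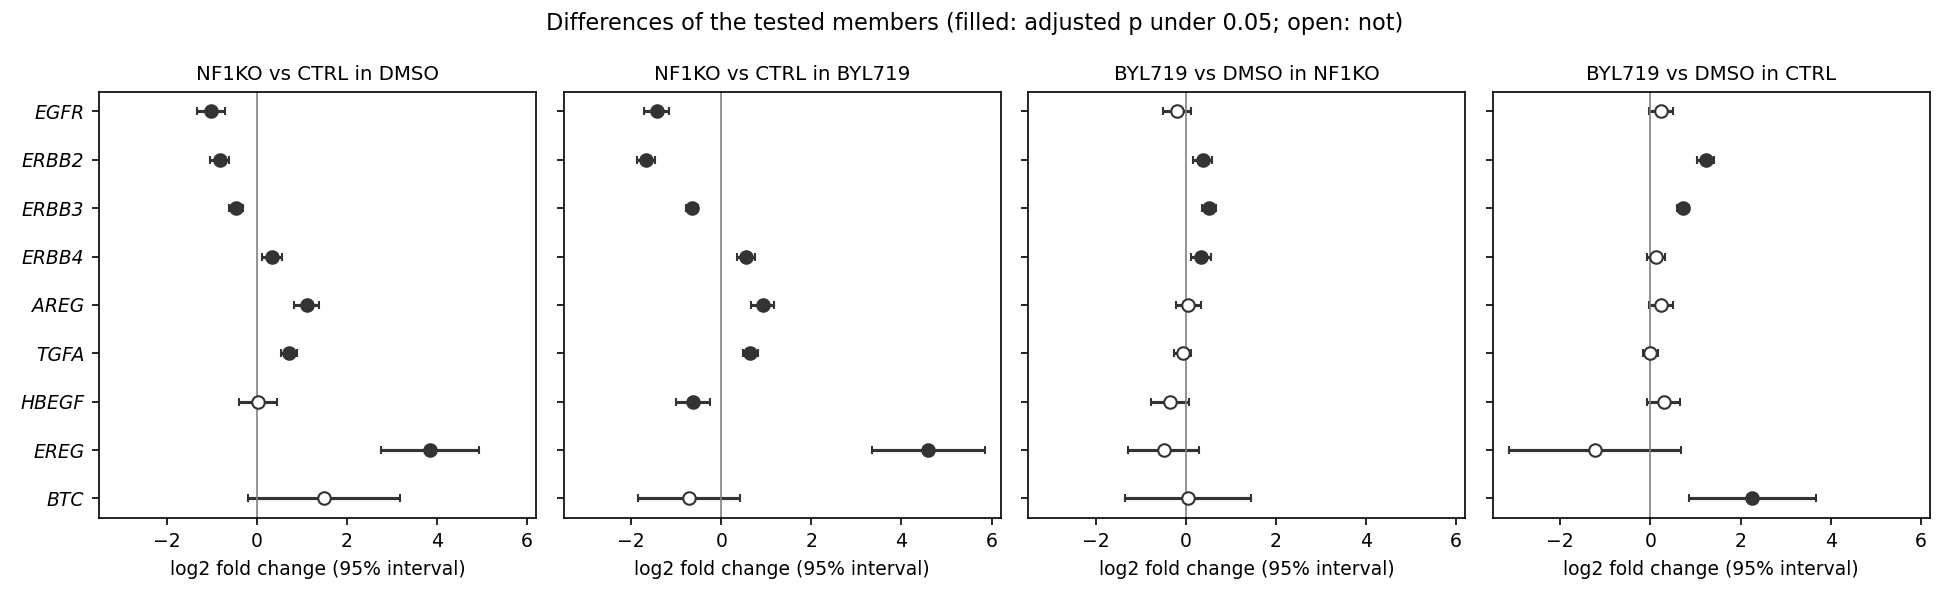
Log2 fold changes with 95% intervals of the 9 tested members for NF1KO against CTRL in DMSO and in BYL719 and for BYL719 against DMSO in NF1KO and in CTRL; filled points passed an adjusted p under 0.05. Line differences run down for EGFR, ERBB2 and ERBB3 and up for ERBB4, AREG, TGFA and EREG, and the widest intervals belong to EREG and BTC.

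Positions are those of RefSeq on GRCh38.p14. EPGN, EREG, AREG and BTC, all EGF-family ligands, lie in this order on chromosome 4. EREG occupies chr4:74365145-74388749 and AREG chr4:74445136-74455005, 56.4 kb apart, with EPGN 48.4 kb before EREG and BTC 290 kb beyond AREG. EPGN, epigen, a low-affinity EGFR ligand, had 14, 11 and 7 counts in NF1KO BYL719 libraries and 24 and 25 in NF1KO DMSO libraries, against 18, 11 and 20 in CTRL BYL719 and 14, 10 and 11 in CTRL DMSO libraries. In DMSO, EPGN was higher in NF1KO by 1.09 ± 0.32 (adjusted p = 0.0338). AREG was called higher there too and BTC was not called, where 9.99% of all tested genes were called higher. EREG is not counted here, since it passed the filter on low counts through its NF1KO libraries. The EPGN call was lost without any CTRL DMSO library (adjusted p up to 0.0916) or NF1KO DMSO library, and with no filter (0.0551) or DESeq2 (0.0811). In BYL719, NF1KO against CTRL gave -0.57 ± 0.32 for EPGN (adjusted p = 0.1745). BYL719 against DMSO gave -1.22 ± 0.33 for EPGN in NF1KO (adjusted p = 0.0239) and 0.45 ± 0.31 in CTRL (adjusted p = 0.274). MTHFD2L, which lies before EPGN, stood at 0.12 ± 0.12 for NF1KO against CTRL in DMSO (adjusted p = 0.517) and at 0.31 ± 0.11 in BYL719 (adjusted p = 0.0448).

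ERBB2 occupies chr17:39688094-39728658. Of the 13 tested genes within 250 kb of it, 4 were higher and 2 lower in NF1KO than in CTRL in DMSO, where 20.3% of all tested genes were called. Their median log2 fold change was 0.34, against -0.82 for ERBB2. For NF1KO against CTRL in BYL719, 4 were higher and 3 lower, where 39.8% were called, with a median of 0.11, against -1.67 for ERBB2. The lower genes were ORMDL3 (-0.74 ± 0.07, adjusted p = 2.73e-06), PGAP3 (-0.30 ± 0.09, adjusted p = 0.0188) and GSDMB (-0.99 ± 0.27, adjusted p = 0.0118). These calls in BYL719 were not checked with libraries left out or under other settings. Under BYL719, 3 of the 13 were higher in CTRL, namely PGAP3 (0.58 ± 0.09, adjusted p = 0.000265), GRB7 (0.45 ± 0.12, adjusted p = 0.00841) and ORMDL3 (0.81 ± 0.07, adjusted p = 1.75e-06), where 44.4% of all tested genes were called. The median of the 13 was -0.07. In NF1KO, 2 of the 13 were higher, PGAP3 by 0.34 ± 0.10 (adjusted p = 0.0381) and ORMDL3 by 0.24 ± 0.07 (adjusted p = 0.0428), where 18.7% of all tested genes were called. Both calls were lost without CTRL DMSO replicate 2, CTRL BYL719 replicate 2, either NF1KO DMSO library, or NF1KO BYL719 replicate 1 or 2, that of PGAP3 also without NF1KO BYL719 replicate 3 and that of ORMDL3 also without CTRL BYL719 replicate 3 and with no filter (0.0745), with adjusted p-values up to 0.226 for PGAP3 and 0.279 for ORMDL3. MIEN1 overlaps the far end of ERBB2 and had 16.3% as many counts as ERBB2. For NF1KO against CTRL, MIEN1 stood at 0.46 ± 0.17 in DMSO (adjusted p = 0.0766, and 0.0421 with DESeq2) and at 0.42 ± 0.15 in BYL719 (adjusted p = 0.0477). For BYL719 against DMSO it stood at -0.17 ± 0.17 in NF1KO (adjusted p = 0.529) and at -0.13 ± 0.15 in CTRL (adjusted p = 0.527). The library kit keeps strand, but whether the counting used it is not given in the sources used here.

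The wider pathway was taken as 31 genes in 4 sets, of which 29 were tested; the neuregulins NRG2 and NRG3 had too few counts. For NF1KO against CTRL in DMSO, 6 of the 29 (20.7%) were called, 3 higher and 3 lower, next to 20.3% of all tested genes, with a median log2 fold change of -0.06 in the list. For NF1KO against CTRL in BYL719, 10 (34.5%) were called, 3 higher and 7 lower, next to 39.8%, with a median of -0.07. For BYL719 against DMSO in NF1KO, 7 (24.1%) were called, 2 higher and 5 lower, next to 18.7%, with a median of -0.02. For BYL719 against DMSO in CTRL, 14 (48.3%) were called, 6 higher and 8 lower, next to 44.4%, with a median of 0.01. The list as a whole was thus called at about the rate of all genes, whose medians lay between -0.01 and 0.01.

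Among the other ligands, NRG4, which binds ERBB4, had 1.21, 1.17 and 1.22 CPM in NF1KO BYL719 libraries and 2.82 and 2.57 CPM in NF1KO DMSO libraries, against 2.35, 2.12 and 1.98 CPM in CTRL BYL719 and 5.62, 4.87 and 4.92 CPM in CTRL DMSO libraries. It was lower both in NF1KO and under BYL719. NF1KO against CTRL on DMSO gave -0.93 ± 0.13 (adjusted p = 0.000326), and on BYL719 -0.85 ± 0.13 (adjusted p = 0.000229). BYL719 against DMSO gave -1.17 ± 0.14 in NF1KO (adjusted p = 0.000285) and -1.25 ± 0.12 in CTRL (adjusted p = 5.01e-06). EGF, the founding EGFR ligand, averaged 10.2 ± 0.446 CPM in NF1KO BYL719, 18.0 ± 0.548 in NF1KO DMSO, 12.6 ± 0.514 in CTRL BYL719 and 20.6 ± 1.09 in CTRL DMSO (SD, n = 3, 2, 3 and 3). BYL719 lowered it in NF1KO (-0.82 ± 0.08, adjusted p = 9.37e-05) and in CTRL (-0.71 ± 0.07, adjusted p = 1.05e-05). EGF was lower in NF1KO than in CTRL on BYL719 (-0.30 ± 0.07, adjusted p = 0.00634), and in DMSO the difference did not pass (-0.19 ± 0.08, adjusted p = 0.120).

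Of the 11 genes for inhibitors and degradation, LRIG1, a membrane protein that promotes the degradation of ERBB receptors, had 131, 142 and 130.2 CPM in NF1KO BYL719 libraries and 93.7 and 93.7 CPM in NF1KO DMSO libraries, against 328, 316 and 322 CPM in CTRL BYL719 and 218, 203 and 209 CPM in CTRL DMSO libraries. No groups overlapped. LRIG1 was lower in NF1KO by -1.16 ± 0.07 in DMSO (adjusted p = 2.02e-07) and by -1.26 ± 0.06 in BYL719 (adjusted p = 1.26e-08), and BYL719 raised it by 0.52 ± 0.07 in NF1KO (adjusted p = 0.000428) and by 0.62 ± 0.06 in CTRL (adjusted p = 5.22e-06). ERRFI1, which encodes MIG6, a feedback inhibitor of EGFR and ERBB2, had 60.6, 57.4 and 54.0 CPM in NF1KO BYL719 libraries and 66.7 and 69.4 CPM in NF1KO DMSO libraries, against 41.9, 38.9 and 40.1 CPM in CTRL BYL719 and 37.8, 37.2 and 35.7 CPM in CTRL DMSO libraries. It was higher in NF1KO by 0.88 ± 0.07 in DMSO (adjusted p = 2.59e-06) and by 0.51 ± 0.06 in BYL719 (adjusted p = 4.64e-05). CBLB, a ubiquitin ligase, rose under BYL719 by 0.60 ± 0.10 in NF1KO (adjusted p = 0.00219) and by 0.52 ± 0.09 in CTRL (adjusted p = 0.000550), effects not shown to differ (0.08 ± 0.13, adjusted p = 0.798). RNF41, a ubiquitin ligase for ERBB3, rose in CTRL by 0.48 ± 0.07 (adjusted p = 0.000165).

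Of the 4 genes for ligand shedding, RHBDF1, which encodes iRhom1, a partner of the sheddase ADAM17, was lower in NF1KO on BYL719 (-0.70 ± 0.10, adjusted p = 0.000106) and higher under BYL719 in CTRL (0.63 ± 0.10, adjusted p = 0.000222). RHBDF2, which encodes iRhom2, fell under BYL719 in CTRL by 0.36 on the log2 scale (SE 0.12, adjusted p = 0.0316), a call that ended when CTRL BYL719 replicate 1 or 2 (adjusted p = 0.0695 and 0.0752) or CTRL DMSO replicate 3 (0.116) was left out. ADAM17 itself stood at -0.19 ± 0.06 for NF1KO against CTRL in DMSO (adjusted p = 0.0496), a call lost in 13 of 20 alternatives, with adjusted p-values up to 0.291. ADAM10, a sheddase too, stood at 0.15 ± 0.07 for NF1KO against CTRL in BYL719 (adjusted p = 0.122). Without NF1KO BYL719 replicate 3 its value was 0.23 and passed (adjusted p = 0.0112), and without NF1KO BYL719 replicate 1 it was 0.09 (adjusted p = 0.372).

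Of the 11 adaptors and effectors, those with the smallest adjusted p for NF1KO against CTRL in DMSO did not pass. SOS1, an exchange factor for RAS, stood at -0.42 ± 0.14 (adjusted p = 0.0598, and 0.0349 with DESeq2) and PLCG1, phospholipase C gamma, at -0.44 ± 0.16 (adjusted p = 0.0720, and 0.0420 with DESeq2). In BYL719, EPS8, an EGFR substrate, was higher in NF1KO by 0.57 ± 0.06 (adjusted p = 5.70e-06). GRB2, the adaptor between receptors and SOS1, was higher there by 0.17 ± 0.05 (adjusted p = 0.0180), a call lost without CTRL BYL719 replicate 3 (0.0538) or NF1KO BYL719 replicate 2 (0.0596) and when only the compared libraries entered the fit (0.0879). BYL719 lowered SHC1, an adaptor, by -0.49 ± 0.08 in NF1KO (adjusted p = 0.00235) and by -0.24 ± 0.08 in CTRL (adjusted p = 0.0217), effects not shown to differ (-0.25 ± 0.11, adjusted p = 0.234). The SHC1 call in CTRL was lost without CTRL DMSO replicate 2 (0.0522) or 3 (0.0741) or CTRL BYL719 replicate 1 (0.0614). In CTRL BYL719 also lowered EPS8 by -0.64 ± 0.06 (adjusted p = 2.59e-06) and PLCG1 by -0.82 ± 0.14 (adjusted p = 0.000626).

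**Figure D5:**
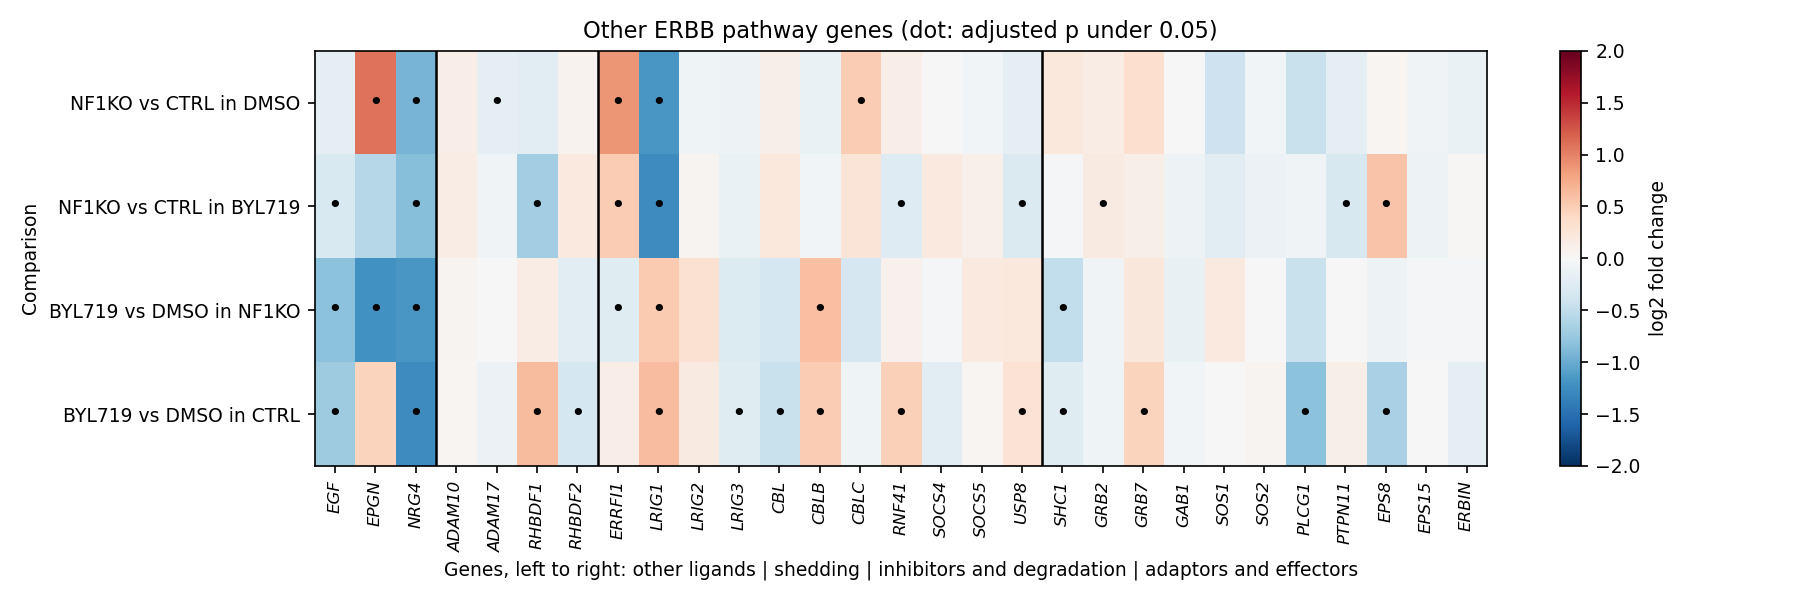
Log2 fold changes (colour, from -2 to 2) of the 29 tested pathway genes that are not among the 10 members, in 4 comparisons (rows); a dot marks an adjusted p under 0.05. NRG4 is lower in every row, and LRIG1 is lower in NF1KO and higher under BYL719.

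The BYL719 effect differed between the lines for 4 of the 29 pathway genes, 1 higher and 3 lower, or 13.8% of the list against 9.39% of all tested genes. EPS8 had a difference of 0.54 ± 0.08 (adjusted p = 0.00146), ERRFI1 of -0.37 ± 0.09 (adjusted p = 0.0280), RNF41 of -0.40 ± 0.11 (adjusted p = 0.0329) and EPGN of -1.66 ± 0.45 (adjusted p = 0.0395). The EPS8 call was kept in all 20 alternatives. The calls of ERRFI1, RNF41 and EPGN were lost in 6 of 20, 9 of 20 and 12 of 19 alternatives, either NF1KO DMSO library left out being among them, with adjusted p-values up to 0.159, 0.144 and 0.142. RHBDF1, at -0.48 ± 0.14, did not pass (adjusted p = 0.0597), but it did with DESeq2 (0.0198), with the libraries paired by number over all groups (0.00863) or within each line (0.000941), and without CTRL DMSO replicate 3 (0.0304), CTRL BYL719 replicate 1 (0.0422), NF1KO BYL719 replicate 3 (0.0378) or both CTRL libraries numbered 1 (0.0488).

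NF1KO cells on BYL719 set against CTRL cells on DMSO had 11 of the 29 pathway genes called (37.9%), 4 higher and 7 lower, next to 34.9% of all tested genes. NRG4 was lower by -2.10 ± 0.12 (adjusted p = 1.53e-07), EGF by -1.01 ± 0.07 (adjusted p = 9.08e-07) and PLCG1 by -0.88 ± 0.14 (adjusted p = 0.000541). ERRFI1 was higher by 0.64 ± 0.06 (adjusted p = 1.30e-05) and GRB7, an adaptor that binds ERBB2, by 0.56 ± 0.12 (adjusted p = 0.00298). LRIG1 was lower by -0.64 ± 0.06 (adjusted p = 6.00e-06).

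Genes with the pattern most like each member over the 11 libraries were ranked by Pearson's r of log2 CPM, given as a description, since the libraries fall into 4 groups. Nearest to ERBB2 were PMEPA1 (r = 0.998) and EFEMP1 (r = 0.997), to ERBB3 GATAD1 and STC2 (0.993 each), to EGFR WWC2 (0.991) and IL4R (0.990), and to ERBB4 MAP3K1 (0.982) and C18orf25 (0.972). Nearest to AREG were ARRB1 (0.991) and MOCS1 (0.981), to TGFA MAGEA3 (0.994), a gene with close copies that may share its reads, and TMEM87A (0.991), and to HBEGF ASB6 (0.924) and TYW1B (0.911).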

How the data were processed

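Per the labels' protocols, polyadenylated RNA was made into libraries with the TruSeq stranded mRNA kit and sequenced as single reads of 76 bases. Per the submitters' processing notes, hg38, STAR 2.5.2a, SAMtools 1.7, Picard 2.9.2 and edgeR were used; the counting tool and the annotation are not given in the sources used here. The deposited values are unnormalised whole counts for 27864 Entrez genes in 11 libraries. No column of per-sample values was left unmapped.

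From these, edgeR 4.0.16 in R 4.3.3 was fitted (filterByExpr, TMM scaling, 4 groups, 7 residual degrees of freedom, quasi-likelihood F test, 2-sided) in 6 comparisons, with Benjamini-Hochberg adjustment over the 16081 tested genes. The SE of a log2 fold change is its size over the square root of F. CPM per kb used the union of GENCODE 29 exons; positions and promoters came from RefSeq GRCh38.p14. Limits for a count of 0 are 3 counts and cover counting error only.

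Members, lists and tests were chosen with earlier results of these data known. Named were all 10 members, NF1, the 2 genes of each pathway set with the smallest adjusted p per comparison and, for members with a mean log2 CPM (prior count 2) of at least 1, the 2 genes of highest correlation among those with a mean of at least 2. Genes near ERBB2 and EREG were chosen by position.

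Deviations from the group mean correlated at 0.595, 0.337 and 0.318 between CTRL BYL719 and CTRL DMSO libraries of equal number. Of unequal number, CTRL DMSO replicate 2 and CTRL BYL719 replicate 3 gave 0.228, and CTRL DMSO replicate 3 and CTRL BYL719 replicate 2 gave 0.177. The pairing thus showed most in the CTRL libraries numbered 1. The 2 NF1KO pairs of equal number gave 0.0838 and 0.149. Of unequal number, NF1KO DMSO replicate 3 gave -0.0838 with NF1KO BYL719 replicate 2, and NF1KO DMSO replicate 2 gave -0.149 with NF1KO BYL719 replicate 3. NF1KO BYL719 replicate 1 gave 0.0804 and -0.0804 with NF1KO DMSO replicates 2 and 3. Deviations of 2 libraries from their mean mirror each other, so this check cannot decide on pairing in NF1KO. The fit behind the adjusted p-values did not pair libraries, and pairing entered only as an alternative. Alternatives used RLE and upper-quartile scaling, no filter, at least 1 CPM in 3 libraries, DESeq2 1.42.0, limma 3.58.1 (voom), a replicate block, a block within genotype, only the compared libraries, and left-out libraries. Leaving out an NF1KO DMSO library leaves 1, assumed to vary like the other groups. Figures were drawn with matplotlib 3.10.9.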

Additional observations from a re-analysis of the deposited data

Results flagged for a closer look

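The BYL719 effect differed between NF1KO and CTRL, by a test of the difference itself (edgeR's quasi-likelihood test, NF1KO minus CTRL on the log2 scale), for ERBB2 by -0.85 (adjusted p = 0.00115), for EPS8 by 0.54 (0.00146), for ERRFI1 by -0.37 (0.0280), for RNF41 by -0.40 (0.0329) and for EPGN by -1.66 (0.0395). The ERBB2 difference lay between -0.92 and -0.79 over 20 alternatives and passed in each. That of EPS8 passed in all 20 as well, and those of ERRFI1, RNF41 and EPGN were lost in several, as given above. EPGN rests on 7 to 25 counts a library.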

How the results depend on the processing

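Of 2347 values of named genes under an alternative, 2179 kept their direction and side of the threshold, 95 lost the call, 59 gained it and 14 changed sign. With a replicate block, ERBB2, ERBB3, EGFR and AREG were called under BYL719 in CTRL, where 53.1% of all tested genes were called. HBEGF was added with the block within genotype, where 63.4% were. Without a block, 2 of the 8 members other than BTC were called. BTC is not counted here, since it passed the filter largely through the CTRL BYL719 libraries. The block within genotype gave 5 members in NF1KO (3 without), AREG and HBEGF being added, where 41.9% of all tested genes were called. For the difference of effects it gave 4, where 27.0% were called, and the replicate block gave 3, where 13.9% were (1 without). EGFR and HBEGF were added to the difference in both, and ERBB3 within genotype. For NF1KO the equal numbers are not shown to pair the libraries. Of the pathway list, 7 called under BYL719 in NF1KO became 11 with DESeq2, 12 with the replicate block, 17 with the block within genotype, 12 with only the compared libraries and 13 without both CTRL libraries numbered 1; 4 called for the difference of effects became 1 with no filter and 8 with the block within genotype; and 6 called for NF1KO against CTRL in DMSO became 10 with the replicate block.

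Without 1 library at a time, members called numbered 1 to 3 under BYL719 in NF1KO (1 without NF1KO DMSO replicate 2 or 3 or NF1KO BYL719 replicate 2) and 1 to 2 for the difference (2 without CTRL DMSO replicate 3). Pathway genes called numbered 5 to 12 under BYL719 in NF1KO (12 without CTRL BYL719 replicate 1), 1 to 5 for the difference and 3 to 9 for NF1KO against CTRL in DMSO (3 without either NF1KO DMSO library). Over all genes, 3014 called under BYL719 in NF1KO became 4664 with the replicate block, 6744 with it within genotype, 5312 without both CTRL libraries numbered 1 and 788 to 3962 without 1 library. For the difference, 1510 became 4345 with the block within genotype, 2411 without both CTRL libraries numbered 1 and 740 to 2155 without 1 library, and for NF1KO against CTRL in DMSO 3269 became 1523 to 4256. The lowest counts came without an NF1KO DMSO library, which leaves 1.

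No value that passed in the fit reported above changed sign among these named genes under the alternatives run. MIEN1 under BYL719 in CTRL lay between -0.26 and 0.0431 without 1 library. TGFA under BYL719 in CTRL turned from -0.0014 to 0.0015 with RLE scaling, 0.0153 with upper-quartile scaling, 0.0094 with the filter of 1 CPM, 0.0015 with DESeq2 and 0.0367 without both CTRL libraries numbered 1, and lay between -0.0511 and 0.0693 without 1 library. Without 1 library, AREG under BYL719 in NF1KO lay between -0.0361 and 0.164, BTC there between -0.30 and 0.49, and HBEGF for NF1KO against CTRL in DMSO between -0.10 and 0.15. The cause was not tested. Depth limits EREG, BTC, EPGN and NRG1, which had 261, 110, 165 and 2 counts in all.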
